A study of Rattus norvegicus and Bos taurus with 6 samples.

Results

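Adipocyte nuclei of cow subcutaneous white adipose tissue (WAT) were chosen from their own counts. A nucleus was taken when the unique molecular identifiers (UMIs, 1 for each captured transcript) of its adipocyte genes, summed to A, were at least 8 and more than 2 times B, the sum over genes of other lineages, with no upper limit on UMIs. A was made of PLIN1, CIDEC, LIPE, PLIN4, PNPLA2 and DGAT2, which act on the lipid droplet. ADIPOQ and PPARG belong to the same rule but had no identifier paired with these symbols and were not analysed here, so that A held 6 of its 8 genes. B was made of PTPRB and PECAM1 (endothelial), PDGFRA, DCN and FBN1 (stromal), PTPRC, MRC1 and DOCK2 (immune) and NOTCH3 and MYH11 (mural). The rule found 142 of 2297 cow nuclei, or 6.18% (exact binomial 95% interval, 5.23% to 7.25%), in a series of 19424 nuclei.

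White adipocytes store triglyceride in a large droplet. They take up fatty acids freed by lipoprotein lipase or build them from small precursors, join them to glycerol 3-phosphate, and release them by lipolysis when catecholamines outweigh insulin. In ruminants, adipose tissue is a main site of fatty acid synthesis and acetate from the rumen is the chief carbon source. In dairy cows, growth hormone and low insulin around calving favour release of this store, which feeds the udder.

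The series compared rat and cow fat depots as sources of nuclei. The cow library was made from flank subcutaneous WAT of lactating Holstein cows, females early in the second lactation and labelled as free of disease, kept in tie-stalls on sawdust. The tissue was snap frozen and pulverized, nuclei were released in a Dounce homogenizer, and the RNA was barcoded inside fixed nuclei with the Parse Evercode WT v3 kit. It was 1 library with no replicate, the number of animals in it is not given in the sources used here, and whether nuclei of different animals differ was not tested. All intervals below are exact 95% intervals that cover counting error only, and no test between groups was possible. The library held 16827260 UMIs over 2 sublibraries, which are separate portions of the barcoded nuclei, and 2 first-round wells, A11 and A12. No cow barcode occurred in the 4 rat libraries made with the same kit. The study split reads by species before alignment, so this is no check of mixing between samples. The same combination of 3 wells occurred in both sublibraries 85 times, and 1 of these held an adipocyte nucleus in each.

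The genes of A describe the choice and support nothing beyond it. DGAT2, which makes triglyceride, had a UMI in 138 of the 142 nuclei, PLIN1, which coats the droplet, in 131, and LIPE, the hormone-sensitive lipase, in 129. A ran from 8 to 727 UMIs per nucleus with a median of 45.5, and B from 0 to 144 with a median of 4. Just inside the limit, 2 nuclei had an A of 8 and none an A of 9 with A above 2 times B. Just outside it, 10 nuclei had an A of 7, and their median depth was 1808 UMIs. At the other limit, 8 nuclei had an A over 2 and up to 2.5 times B, and 18 nuclei that were not taken had an A over 1.5 and up to 2 times B. Nuclei thus lay on both sides of both limits, as the plot of A against B shows, and a limit of 5 for A would add 22 nuclei.

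**Figure D1:**
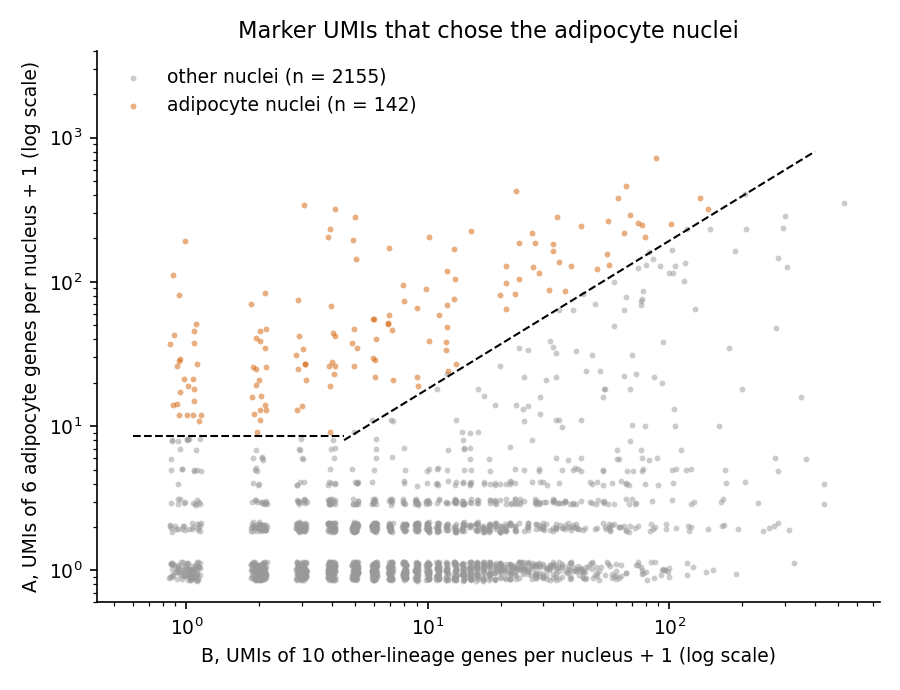
Each point is 1 cow nucleus, with B (UMIs of 10 other-lineage genes, plus 1) on the horizontal and A (UMIs of 6 adipocyte genes, plus 1) on the vertical axis, both on log scales and jittered. Dashed lines mark the limits of an A of 8 and of 2 times B, and the 142 orange nuclei above both are the adipocyte nuclei.

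Adipocyte markers outside the rule were high in part. GPAM, ACSL1, PCK1, GPD1, AGPAT2, LEP, AQP7, PDE3B, FASN and LPL were taken as adipocyte markers that the rule did not use. This set was chosen with earlier results of these data known. Each was at least 2-fold higher in the adipocyte nuclei than in the other 2155 nuclei. PCK1 passed the minimum of UMIs only through adipocyte nuclei and so had to be higher, though not by 2-fold. The smallest ratio of the set was that of LPL, 4.3-fold (4.05 to 4.57), and the largest that of LEP, 13.3-fold (11.2 to 15.9). Other genes in common use for fat cells were not 2-fold higher, with CD36 at 0.997 times (0.958 to 1.04), FABP4 at 1.19 times (1.1 to 1.28), PLIN2 at 0.825 times (0.656 to 1.02) and SLC2A4 at 1.45 times (0.868 to 2.26) the level of other nuclei. SLC2A4 was counted only through its adipocyte UMIs, so its ratio had to be above 1. Leptin is the hormone by which fat cells report their stores.

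Adipocyte nuclei were deep. Their UMIs ran from 1432 to 129354, with a median of 9076.5 (order-statistic interval, 6826 to 13596), against a median of 3353 (3143 to 3542) in the other nuclei. They were 6.18% of nuclei and held 16.2% of the UMIs. The median was 4256 UMIs in 473 nuclei with endothelial markers, 3993 in 419 with stromal markers, 3756 in 259 with immune markers and 3683.5 in 180 with mural markers. The class genes were those of B with CDH5, FLT1, VWF and EGFL7 (endothelial), LUM and COL1A2 (stromal), CD163, CSF1R and SKAP1 (immune) and RGS5, ACTA2 and PDGFRB (mural). Each of these marker classes holds nuclei outside the rule with at least 4 UMIs of its class genes and more than 2 times the sum of every other class and of A. The remaining 824 nuclei had no class. Since A needs 8 UMIs, the rule itself favours deep nuclei.

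**Figure D2:**
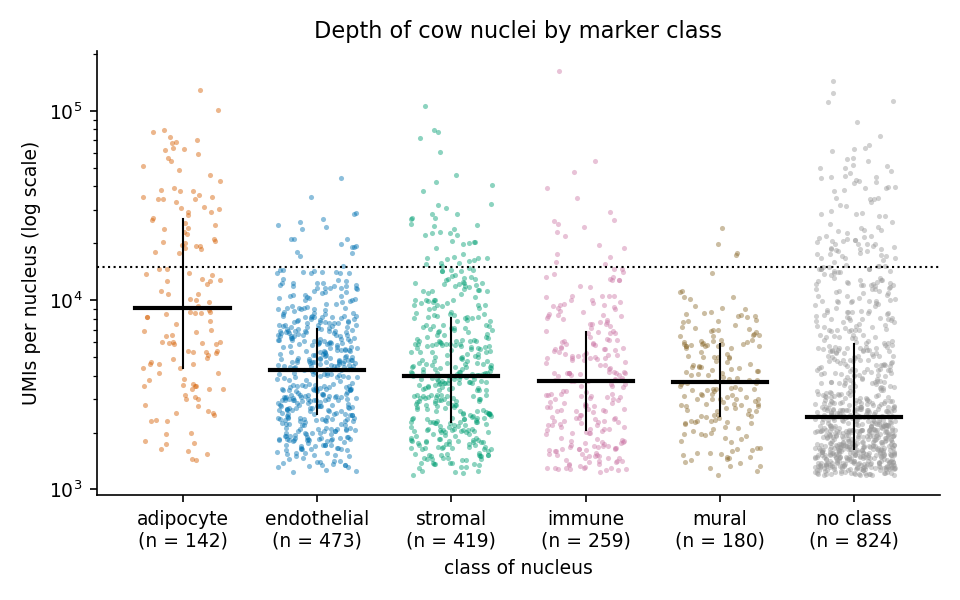
UMIs per nucleus (log scale) are plotted for each nucleus by class, with the median as a thick bar and the quartiles as a thin one. The dotted line marks 15000 UMIs, a limit the study set in reads and that is applied here to UMIs, and the adipocyte nuclei have the highest median, 9076.5 UMIs.

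The study left out nuclei over 15000 reads, a limit applied here to UMIs, or over 4500 genes. Of the 276 cow nuclei past either limit, 56 were adipocyte nuclei (20.3%, 15.7% to 25.5%), while they were 86 of the 2021 nuclei within both limits (4.26%, 3.42% to 5.23%). These limits would leave out 56 of the 142, and the 86 within them had a median of 5069 UMIs.

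The first-round wells also differed. Well A11 gave 85 adipocyte nuclei of 1050 (8.10%, 6.52% to 9.91%) with a median of 12223 UMIs, and well A12 gave 57 of 1247 (4.57%, 3.48% to 5.88%) with a median of 6008 UMIs. Over all nuclei the medians of the wells were 3540.5 and 3524 UMIs, and 1785 and 1628 genes. The most abundant transcript, ENSBTAG00000066082, made up 8.17% of all UMIs in A11 and 14.0% in A12. The intervals of the adipocyte shares of the wells did not overlap, for which the cause was not tested. The sublibraries were closer, with 68 of 1143 nuclei (5.95%, 4.65% to 7.48%) and 74 of 1154 (6.41%, 5.07% to 7.98%).

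Transcripts of other lineages were present in part of the adipocyte nuclei. The B sum was 0 in 25 nuclei, and 62 of the 142 had fewer than 4 UMIs of each class. The other 80 had 4 or more UMIs of at least 1 class, most often stromal (55 nuclei), then immune (50), endothelial (37) and mural (27). These counts use only the class genes named above, and transcripts such as COL3A1 and MCAM are not among them. The study called doublets, but none were taken out here and no caller was run, and nuclei caught together or free RNA in these values was not tested. Another 89 nuclei had an A of at least 8 that was not above 2 times B. Their median was 22642 UMIs, with a median A of 30 and B of 58, and they held 27.6% of all FASN UMIs, so the comparison group is not free of adipocyte transcripts.

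FASN, fatty acid synthase, shows how these transcripts were spread. Of its 25215 UMIs, 63.6% were in adipocyte nuclei, 2.78% in nuclei with an A of 3 to 7 and 5.99% in the 1904 nuclei with an A under 3. In CPM, the UMIs of a gene in every 1000000 UMIs of a group, FASN was at 5884 in adipocyte nuclei and at 160.1 in nuclei with an A under 3. Ratios below are against all other nuclei, these included. For the 25 leading genes described below, log2 ratios ran from 3.16 to 3.82 against all other nuclei and from 3.70 to 5.46 against the 4 marker classes.

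Over all genes, CPM of the adipocyte nuclei was set against CPM of the other 2155 nuclei, with 0.5 UMI added. A gene was counted when it had at least 20 UMIs in the adipocyte nuclei or would have had them at the level of the other nuclei. Of 12602 genes counted, 1359 (10.8%) were at least 2-fold higher and 2405 (19.1%) at least 2-fold lower. These are counts past a fold, not past a test, and 757 of the genes were counted only because of their UMIs in adipocyte nuclei. The median log2 ratio was −0.15. Counts of list genes below stand beside these shares of all genes, 10.8% higher and 19.1% lower, and several moved with the setting. With each nucleus thinned to 1000 UMIs, the shares were 26.8% higher and 17.6% lower of 1695 genes counted. List counts given for that setting kept the list genes counted here, so these shares cover another set of genes. One transcript, ENSBTAG00000066082, took 54197 CPM of the adipocyte nuclei and 122218 CPM of the others, and leaving it out of the scaling moved every log2 ratio by −0.11.

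The 25 genes with the largest ratios were taken outside the rule, among genes with a symbol, at least 50 UMIs and a UMI in at least 10% of adipocyte nuclei. INSIG1, which holds back SREBP and so sterol and fatty acid synthesis, led with 14.1-fold (12.6 to 15.9). It was followed by LEP, LPIN1 with 13.1-fold (12.5 to 13.7) and ACSS2 with 12.9-fold (12.3 to 13.6). LPIN1 makes diacylglycerol and ACSS2 turns acetate into acetyl-CoA. The others were KLHL31, ADIG, LGALS12, PLIN5, ACLY, CYP2B6, MLXIPL, ELOVL6, DIPK1B, SFRP5, GPT2, FYB2, PCK1, BDH1, LHCGR, TRARG1, KLB, HIF3A, FASN, GPAM and PPP1R1B. The log2 ratios of the 25 ran from 3.82 for INSIG1 down to 3.16 for PPP1R1B. All 25 were at least 2-fold higher in each sublibrary alone, but they were chosen by their ratio over both sublibraries, so this gives no independent support. Of the 25, 6 (ADIG, PLIN5, DIPK1B, SFRP5, PCK1 and KLB) were counted only through their UMIs in adipocyte nuclei and so had to be higher. LGALS12 is a galectin of the lipid droplet, ADIG a small protein of adipocytes, and TRARG1 a regulator of GLUT4 traffic.

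The members of this set were not equally widespread. CYP2B6, a cytochrome P450, had a UMI in 135 of the 142 nuclei, MLXIPL in 126 and LGALS12 in 109. In contrast, DIPK1B was seen in 17 nuclei, of which 1 held 28.3% of its UMIs, and PCK1 in 34, of which 1 held 21.3%. KLB, the co-receptor of the hormone FGF21, had 106 UMIs in 36 nuclei, with 26.4% in 1 of them. Ratios of these 3 genes therefore rest on few nuclei. LHCGR, the luteinizing hormone receptor, was broader, with 769 UMIs in 86 nuclei and 9.47-fold (8.4 to 10.7).

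Fatty acid synthesis genes were higher as a list. Of 21 genes listed for it, 19 were counted, 14 were at least 2-fold higher and 1 lower, and their median log2 ratio was 2.38 beside −0.15 over all genes. Summed, they took 23145 CPM of the adipocyte nuclei and 2797 CPM of the others, a ratio of 8.27 (8.17 to 8.38). In single nuclei the sum ran from 4357 to 69848 CPM with a median of 21075. No adipocyte nucleus was without UMIs of this list.

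Acetyl-CoA supply comes first. ACSS2 stood at 1960.3 CPM in sublibrary 1 and 1971 CPM in sublibrary 2, against 186 and 121 CPM in the other nuclei. ACLY, which makes acetyl-CoA from citrate, stood at 2067 and 1792 CPM against 235 and 113 CPM, a ratio of 11.1-fold (10.5 to 11.6) over both. Both sources of acetyl-CoA were thus higher in each sublibrary. SLC25A1, which carries citrate out of the mitochondrion, was 3.03-fold (2.21 to 4.09) higher and PC, pyruvate carboxylase, 5.21-fold (4.68 to 5.8) higher. Genes that supply NADPH were also higher, with ME1 at 4.76-fold (4.37 to 5.18) and IDH1 at 3.92-fold (3.44 to 4.47).

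The core enzymes were seen in almost every adipocyte nucleus. ACACA, acetyl-CoA carboxylase, was at 8274 CPM in sublibrary 1 and 6296 CPM in sublibrary 2, against 852 and 743 CPM in other nuclei. Over single nuclei ACACA ran from 0 to 38822 CPM with a median of 5436, and 141 of 142 nuclei had a UMI. Its ratio was 8.89-fold (8.68 to 9.1). FASN was at 6553 and 5452 CPM against 808 and 504 CPM. It ran from 228 to 56708 CPM over nuclei with a median of 5032, and its ratio was 9.04-fold (8.81 to 9.28). FASN was the gene of this pair with a UMI in all 142 nuclei.

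The shares of nuclei with a FASN or ACACA UMI also differed at equal depth. After each nucleus was thinned to 1000 UMIs, for which none was too shallow, 93.7% of adipocyte nuclei and 13.5% of endothelial-marker nuclei had a FASN UMI, where the median depths before thinning were 9076.5 and 4256 UMIs. Before thinning the FASN shares were 100% and 41.2%. For ACACA the thinned shares were 95.1% and 18.6%, and 99.3% and 55.4% before thinning. Endothelial-marker nuclei may use these broadly expressed enzymes too, and free RNA and own transcripts in their shares cannot be told apart. Against the 4 marker classes, the log2 ratio was 4.64 for FASN and 4.51 for ACACA.

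Chain length and desaturation followed. ELOVL6, which lengthens palmitate, was 10.3-fold (9.81 to 10.9) higher, SCD, the stearoyl-CoA desaturase, 7.55-fold (7.28 to 7.84) higher and ELOVL5, an elongase of polyunsaturated chains, 6.0-fold (5.55 to 6.48) higher. Some members of the same families were not higher. SCD5 was at 0.273 times (0.197 to 0.364) the level of other nuclei and stood at 153 CPM in endothelial-marker nuclei against 16.9 CPM in adipocyte nuclei. ACACB, the carboxylase isoform at mitochondria, had 14 UMIs and a ratio of 0.562 times (0.29 to 0.946). FADS1 and FADS2, desaturases of polyunsaturated fatty acids, had 3 UMIs each and were not counted.

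The regulators of the pathway were unequal. MLXIPL, which encodes the glucose-sensing factor ChREBP, was 10.7-fold (9.72 to 11.8) higher and was seen in 35.2% of thinned adipocyte and 0.423% of thinned endothelial-marker nuclei, or 88.7% and 2.33% before thinning. SREBF1, which encodes SREBP1, was 2.32-fold (2.05 to 2.62) higher, with log2 ratios of 0.94 and 1.46 in the sublibraries. SCAP, the SREBP escort, was 7.49-fold (6.93 to 8.1) higher and THRSP, a lipogenic nuclear protein, 8.38-fold (7.21 to 9.77) higher. Among sterol genes LSS was 3.8-fold (3.18 to 4.54) higher and HMGCS1 at 1.7 times (1.21 to 2.33), and IDI1 and FDFT1, which are outside the list, had log2 ratios of 2.71 and 1.64. Of 19 cholesterol and lipoprotein genes counted, 6 were at least 2-fold higher and 2 lower, with a median log2 ratio of 0.53.

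**Figure D3:**
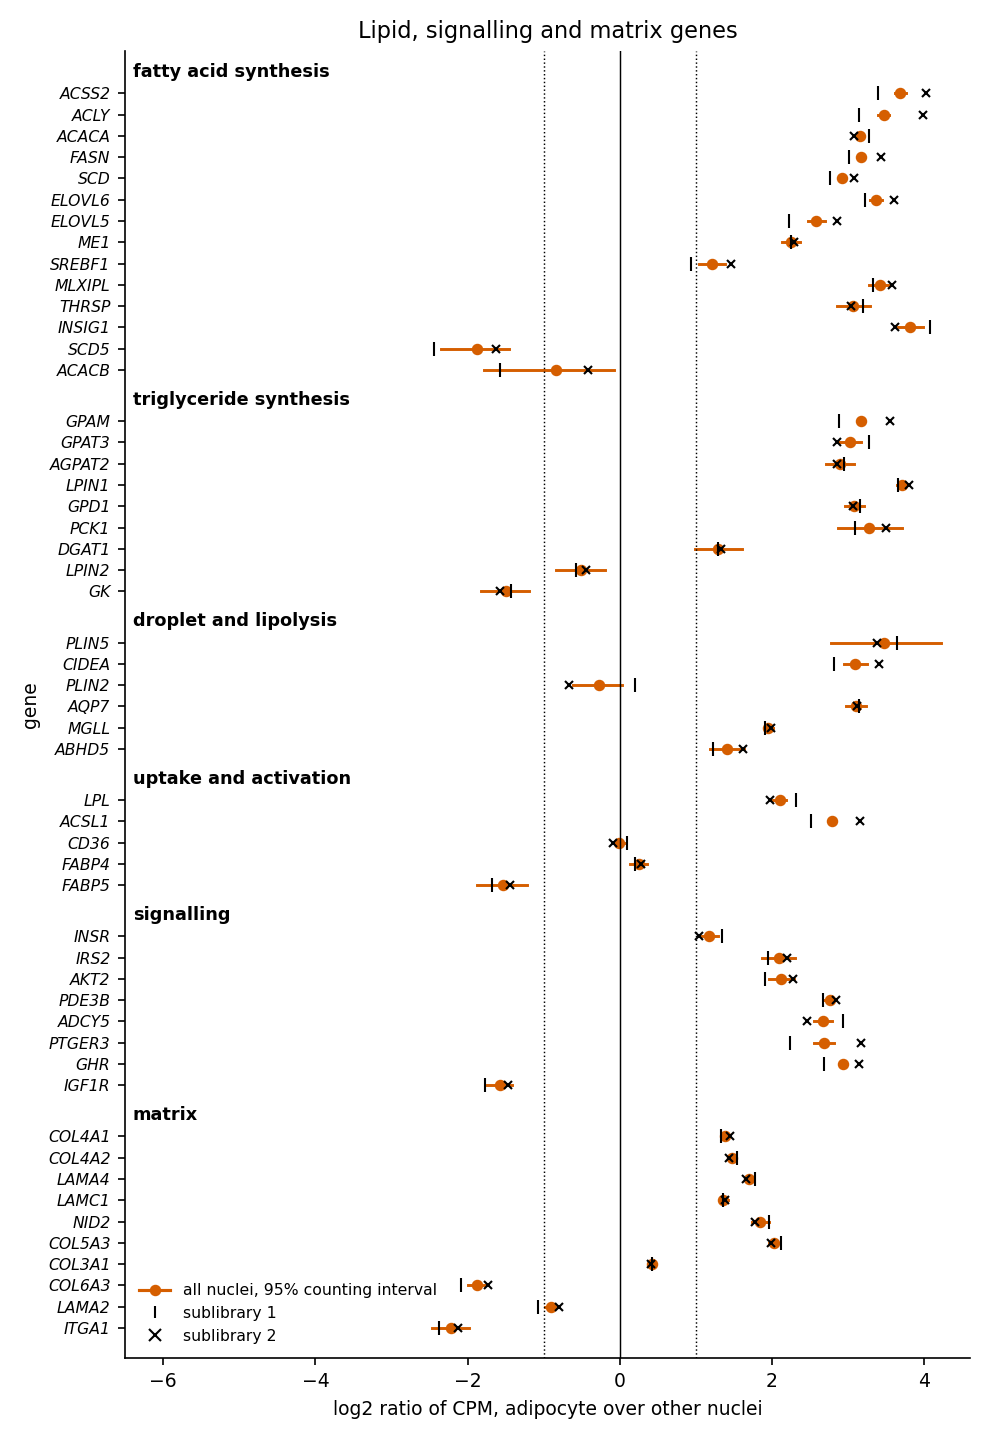
Log2 ratios of CPM, adipocyte over other nuclei, are shown for named genes by role, with 95% counting intervals as bars and each sublibrary as a tick or a cross. Dotted lines mark 2-fold, and within most lipid families some genes lie near 3 while relatives such as SCD5 (−1.87), GK (−1.49) and CD36 (near 0) do not.

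Triglyceride synthesis differed between isoforms. Of 16 genes counted outside the rule, 8 were at least 2-fold higher and 1 lower (median log2 ratio 0.91), and 1 of them was counted only through its adipocyte UMIs. GPAM, the mitochondrial glycerol-phosphate acyltransferase, was at 5143 and 4873 CPM in the sublibraries against 695 and 416 CPM in other nuclei. It ran from 0 to 25311 CPM over nuclei with a median of 4209. The ratio was 9.04-fold (8.79 to 9.3), and that of GPAT3, a microsomal isoform, was 8.12-fold (7.3 to 9.03). GPAT4 was at 1.11 times (0.839 to 1.42).

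The later steps also differed between isoforms. AGPAT2 was 7.44-fold (6.54 to 8.47) higher, while AGPAT1 was at 0.846 times (0.552 to 1.23) and AGPAT3 at 0.902 times (0.658 to 1.2). AGPAT4, which is outside the list, was higher too, with a log2 ratio of 2.04. LPIN1 was at 2726 and 2405 CPM against 216 and 172 CPM, and 128 nuclei held it. LPIN2 was at 0.705 times (0.558 to 0.872) and LPIN3 at 1.43 times (1.16 to 1.73). DGAT1, the other enzyme of the last step beside DGAT2, was 2.46-fold (1.98 to 3.03) higher. So GPAM, AGPAT2 and LPIN1 were at least 7-fold higher, and GPAT4, AGPAT1, AGPAT3 and LPIN2 were within 2-fold.

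Glycerol 3-phosphate can be made from glucose or from pyruvate, or from free glycerol. GPD1, which makes it from a glycolytic intermediate, was 8.47-fold (7.76 to 9.25) higher. PCK1 and PCK2, of glyceroneogenesis, were 9.69-fold (7.3 to 13) and 4.37-fold (3.53 to 5.41) higher, with PCK1 in few nuclei as stated. GK, glycerol kinase, which reuses free glycerol, was at 0.357 times (0.284 to 0.439) and was highest in immune-marker nuclei at 297 CPM.

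Genes of the droplet coat and of lipolysis outside the rule were fewer. CIDEA, a droplet fusion protein that is also listed among thermogenic genes, was 8.55-fold (7.69 to 9.52) higher. PLIN5 was 11.1-fold (6.83 to 18.7) higher but rested on 54 UMIs in 24 nuclei. PLIN2, found on droplets of many cell types, was at 0.825 times (0.656 to 1.02) and PLIN3 at 0.656 times (0.43 to 0.942). Of the 8 droplet genes counted, 3 were at least 2-fold higher and none lower, with a median log2 ratio of 0.34, while 5 were higher and 1 lower (median 1.49) thinned to 1000 UMIs, and 4 higher and 2 lower (median 0.85) with equal weight per nucleus. One of the 8 was counted only through its adipocyte UMIs.

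Of 5 lipolysis genes counted, 4 were at least 2-fold higher and none lower, with a median log2 ratio of 1.95. MGLL, which frees the last fatty acid, was at 1476 CPM against 381 CPM, 3.88-fold (3.72 to 4.04) higher. It was not limited to adipocyte nuclei, since endothelial-marker nuclei stood at 606 CPM. ABHD5, the co-activator of the triglyceride lipase, was 2.67-fold (2.28 to 3.11) higher. AQP7, the glycerol channel, was 8.58-fold (7.84 to 9.4) higher with 469.9 CPM against 15.2 CPM in endothelial-marker nuclei.

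Uptake genes were mixed. LPL, lipoprotein lipase, was at 934 and 612 CPM against 188 and 156 CPM, and immune-marker nuclei stood at 278 CPM. ACSL1, which activates fatty acids, was at 3175 and 2896 CPM against 555 and 325 CPM and was 6.89-fold (6.67 to 7.13) higher. CD36, a fatty acid transporter often used as an adipocyte gene, was at 1098 CPM in adipocyte nuclei and 1102 CPM in other nuclei, a ratio of 0.997 (0.958 to 1.04). Endothelial-marker nuclei had more of it, 1717 CPM, as did immune-marker nuclei with 1605 CPM.

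FABP4, the fatty acid binding protein of fat and endothelium, followed CD36. It was at 308 CPM in adipocyte nuclei, 259 CPM in all others and 515 CPM in endothelial-marker nuclei, and its ratio to all others was 1.19 (1.1 to 1.28). After thinning, 22.5% of adipocyte and 31.7% of endothelial-marker nuclei had a FABP4 UMI, and 78.9% and 66% before it. FABP5 was at 0.345 times (0.272 to 0.428). Of 18 uptake genes counted, 7 were at least 2-fold higher and 3 lower, with a median log2 ratio of 0.52, and 1 was counted only through its adipocyte UMIs.

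**Figure D4:**
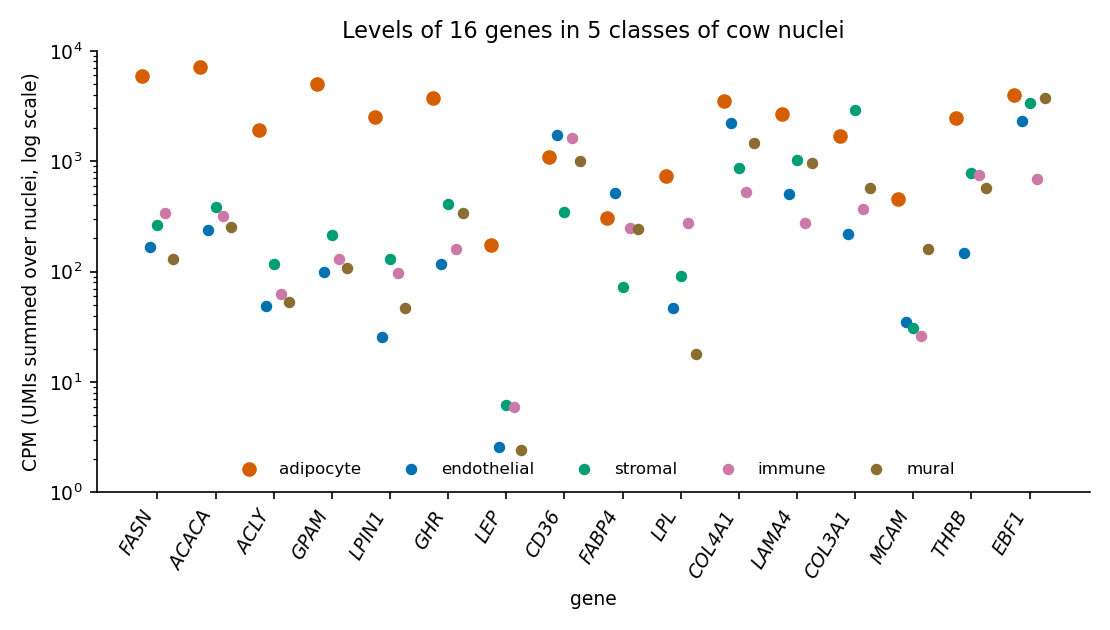
CPM (log scale) of 16 genes is shown in adipocyte nuclei and in 4 marker classes of the same library, 1 point for each class. Levels can be compared between classes for a gene but not between genes, and adipocyte nuclei are highest for FASN, LEP and GHR but not for CD36, FABP4 or COL3A1.

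Hormone receptors came next. GHR, the growth hormone receptor, was at 3507 and 3927 CPM in the sublibraries against 544 and 444 CPM in other nuclei. Over nuclei it ran from 0 to 29483 CPM with a median of 2157, and 129 of 142 nuclei had a UMI. The ratio was 7.64-fold (7.41 to 7.88), and stromal-marker nuclei, the highest other class, stood at 409 CPM. Its signalling partners were nearer to the other nuclei, with JAK2 at 0.714 times (0.629 to 0.806), STAT5A at 1.68 times (1.42 to 1.98) and STAT5B at 1.86 times (1.61 to 2.14). IGF1R, the receptor of insulin-like growth factor, was at 0.335 times (0.298 to 0.374), and the prolactin receptor PRLR had 7 UMIs. Of 13 counted genes of this list, GHR was at least 2-fold higher, a share near the 10.8% of all genes, while 4 were lower and the median log2 ratio was −0.49. With equal weight per nucleus or thinned to 1000 UMIs, 3 of the 13 were higher and 5 lower.

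Insulin signalling genes were mixed. Of 23 counted, 10 were at least 2-fold higher and 1 lower, with a median log2 ratio of 0.46, and 2 were counted only through their adipocyte UMIs. INSR, the insulin receptor, was 2.25-fold (2.07 to 2.44) higher, IRS2 4.26-fold (3.66 to 4.95), AKT2 4.36-fold (3.91 to 4.87) and FOXO1, which insulin keeps out of the nucleus, 2.92-fold (2.75 to 3.09). AKT1, the more general kinase, was at 0.618 times (0.475 to 0.784). PDE3B, by which insulin lowers cyclic AMP, was at 1107 and 1140.5 CPM against 174 and 159 CPM and was 6.78-fold (6.42 to 7.16) higher. SLC2A4, the insulin-responsive glucose transporter GLUT4, had 24 UMIs in 15 nuclei and a ratio of 1.45 (0.868 to 2.26), so no difference was detectable at this depth. SLC2A4 was counted only through these UMIs, so its ratio had to be above 1. TBC1D4, which holds GLUT4 vesicles inside the cell until insulin signals, was 2.59-fold (2.46 to 2.72) higher, while its relative TBC1D1 was at 0.472 times (0.42 to 0.528).

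The cyclic AMP pathway differed by isoform too. ADCY5 and ADCY6, adenylyl cyclases, were 6.35-fold (5.85 to 6.88) and 3.22-fold (2.86 to 3.62) higher. PRKAR2A and PRKAR2B, regulatory subunits of protein kinase A, were 3.53-fold (3.25 to 3.84) and 2.02-fold (1.74 to 2.33) higher. The brakes were among the higher genes as well, with GNAI1, an inhibitory G protein, at 5.95-fold (5.47 to 6.47) and PTGER3, a prostaglandin E receptor that signals through such proteins, at 6.42-fold (5.85 to 7.04). GNAS, the stimulating G protein, was at 0.402 times (0.36 to 0.447). ADRB1 and ADRB3, receptors of catecholamines, had 17 UMIs and 1 UMI. Of 22 genes counted, 8 were at least 2-fold higher and 3 lower, with a median log2 ratio of −0.20.

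Secreted factors beside LEP were described by the adipokine list. LEP was at 225 and 144 CPM in the sublibraries against 14.6 and 11.9 CPM, and 70 of 142 nuclei had a UMI. RBP4, the retinol carrier, was 5.34-fold (3.98 to 7.15) higher with 98 UMIs, and ADIPOR2, a receptor of adiponectin, 6.59-fold (5.96 to 7.29). CDH13, which binds adiponectin, was at 2633 CPM against 915 CPM, and endothelial-marker nuclei stood at 1569 CPM. RARRES2, chemerin, was at 0.461 times (0.344 to 0.598). RETN and FGF21 had 0 UMIs among 2726079, which allows up to 1.10 CPM. Of 10 genes counted, 6 were at least 2-fold higher and 2 lower, with a median log2 ratio of 1.35. The 1 gene counted only through its adipocyte UMIs was RBP4, which so had to be higher.

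Among transcription factors, THRB, a thyroid hormone receptor, was at 2441 CPM against 668 CPM, 3.66-fold (3.54 to 3.77) higher, and endothelial-marker nuclei were the lowest class at 148 CPM. PPARGC1B, a co-activator, was 5.95-fold (5.56 to 6.36) higher, while its relative PPARGC1A was at 0.655 times (0.479 to 0.866). CEBPA was 5.37-fold (3.9 to 7.39), CEBPB 3.26-fold (2.81 to 3.77) and KLF15 4.1-fold (3.2 to 5.23) higher, of which CEBPA was counted only through its 83 adipocyte UMIs and so had to be higher. EBF1 was broad, at 3969 CPM in adipocyte, 3721 CPM in mural-marker and 3363 CPM in stromal-marker nuclei. EBF2 was at 0.475 times (0.434 to 0.518) and was highest in mural-marker nuclei. Of 33 regulators counted, 9 were at least 2-fold higher and 2 lower, with a median log2 ratio of 0.53.

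Genes of heat-producing fat had a median log2 ratio of −0.61. UCP1, the uncoupling protein of brown fat, had 1 UMI and DIO2, which activates thyroid hormone, 2 UMIs. PRDM16, a brown fat regulator, was at 0.37 times (0.292 to 0.46) with its highest level, 219.9 CPM, in mural-marker nuclei. KCNK3, a potassium channel, was 5.57-fold (4.53 to 6.87) higher and CKB, a creatine kinase, 4.44-fold (3.4 to 5.78). With CIDEA they were the 3 of 9 counted that were at least 2-fold higher, and 4 were lower.

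Genes that burn fuel went both ways. Of 19 genes of fatty acid oxidation and ketone use counted, 10 were at least 2-fold higher and 2 lower, with a median log2 ratio of 1.01. OXCT1, which lets cells use ketone bodies, was 2.72-fold (2.5 to 2.96) higher and ACAA2, of the oxidation spiral, 3.55-fold (3.17 to 3.97). BDH1, which interconverts ketone bodies, was 9.51-fold (7.88 to 11.5) higher, but 1 nucleus held 21.4% of its 313 UMIs. CPT1A, the entry of fatty acids into the mitochondrion, was at 0.332 times (0.259 to 0.416), and PDK4, which spares glucose, at 0.412 times (0.352 to 0.477). Branched-chain amino acid breakdown had 7 of 16 counted genes at least 2-fold higher and none lower, with a median log2 ratio of 0.99. BCAT2, its first enzyme, was 3.29-fold (2.47 to 4.34) higher and MCCC1, of leucine breakdown, 3.31-fold (2.97 to 3.67).

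Genes of glucose use went both ways. The pentose phosphate genes TKT, PGD and TALDO1 were 5.93-fold (5.5 to 6.4), 2.9-fold (2.52 to 3.32) and 2.92-fold (2.39 to 3.54) higher. PFKFB1, a switch of glycolytic flux, was 6.62-fold (6.03 to 7.27) higher, ALDOA 3.62-fold (3.14 to 4.18) and LDHB 4.57-fold (3.97 to 5.27). The glycolytic genes PFKP, PKM and HK1 were at 0.289 times (0.209 to 0.384), 0.344 times (0.252 to 0.451) and 0.425 times (0.337 to 0.524). Of 20 genes of hypoxia and glycolysis counted, 9 were at least 2-fold higher and 4 lower, with a median log2 ratio of 0.88.

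Adipocyte nuclei also carried transcripts of the basement membrane, the sheet of matrix that wraps each fat cell. COL4A1 was at 3540.2 and 3479 CPM in the sublibraries against 1408 and 1279.6 CPM, 2.61-fold (2.55 to 2.68) higher. COL4A2 was 2.78-fold (2.71 to 2.85), LAMA4 3.25-fold (3.15 to 3.34), LAMC1 2.57-fold (2.46 to 2.68) and NID2 3.6-fold (3.34 to 3.88) higher. COL5A3, a minor fibrillar collagen, was 4.07-fold (3.9 to 4.25) higher. Endothelial-marker nuclei, which also lay down this matrix, stood at 2197 CPM for COL4A1 and 507 CPM for LAMA4, below the adipocyte nuclei.

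Other matrix genes did not share this. COL6A3 was at 0.271 times (0.25 to 0.293), COL1A2 at 0.26 times (0.232 to 0.291) and LAMA2 at 0.536 times (0.505 to 0.568). Stromal-marker nuclei stood highest for these 3 genes, but COL1A2 is a class gene by which those nuclei were chosen. ITGA1, an integrin of collagen, was at 0.215 times (0.18 to 0.253). Of 25 genes listed for matrix and integrins, all counted, 6 were at least 2-fold higher and 5 lower, the latter a share close to the 19.1% of all genes, with a median log2 ratio of 0.27. COL3A1, a fibrillar collagen, was 1.34-fold (1.29 to 1.38) higher than in other nuclei, at 1687 CPM in adipocyte and 2890.2 CPM in stromal-marker nuclei, and its log2 ratio of 0.42 became 1.14 in the 25 nuclei with a B of 0, a value that the rule itself uses.

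Vascular growth factors were partly higher. VEGFA was at 338 and 307 CPM against 84.8 and 71.2 CPM, 4.11-fold (3.75 to 4.49) higher, and 120 nuclei had a UMI. FGF2 was 4.09-fold (3.68 to 4.55) higher. FGF1 was 4.77-fold (4.23 to 5.37) higher, but 1 nucleus held 33.7% of its 528 UMIs, and its log2 ratio was 3.11 in sublibrary 1 and 1.5 in sublibrary 2. VEGFC, PDGFB and PDGFC were at 0.261 times (0.192 to 0.341), 0.155 times (0.0989 to 0.225) and 0.167 times (0.139 to 0.198). Of 15 ligands counted, 8 were at least 2-fold higher and 3 lower, with a median log2 ratio of 1.16, and 2 were counted only through their adipocyte UMIs.

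Inflammatory genes were few in UMIs. IL1B, IL6, TNF and CXCL2 had 0 UMIs, which allows up to 1.10 CPM for each. LBP, an acute phase protein that binds bacterial lipid, was 6.38-fold (4.75 to 8.61) higher with 105 UMIs in 37 nuclei, the only 1 of 10 counted genes of the list at least 2-fold higher, and it was counted only through its adipocyte UMIs. Another 5 genes were lower and 4 within 2-fold, and the median log2 ratio was −0.74, while thinned to 1000 UMIs none was lower and 1 higher (median −0.23). Immediate early and stress genes had 4 of 14 counted at least 2-fold lower, beside 19.1% of all genes, and none higher (median log2 ratio −0.69), with FOS at 0.377 times (0.297 to 0.469) and ATF3 at 0.243 times (0.163 to 0.339). Thinned to 1000 UMIs, 1 of these 14 was lower and 2 were higher (median −0.03). These 14 kept the filter used before thinning, so the shares of all genes counted after thinning are not a like comparison. JUN, the most abundant of the list in adipocyte nuclei, was at 47.3 CPM, so few UMIs of these genes were left after thinning. All 13 counted genes of steroid receptors and glucocorticoid response lay within 2-fold, with FKBP5 at 1.4 times (1.35 to 1.46) and ZBTB16 at 1.44 times (1.39 to 1.49). With equal weight per nucleus, 1 of the 13 was at least 2-fold higher and 2 were lower. Thinned to 1000 UMIs, 1 was higher and 0 were lower.

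The genes furthest below the other nuclei came last. The 10 lowest outside the rule were TNC, ITPRIP, BCL6B, HEYL, GJA5, VASH1, GATA6, IL1RL1, PLVAP and RERGL, with log2 ratios from −3.88 for TNC to −3.13 for RERGL. BCL6B was at 126 CPM in endothelial-marker and 3.67 CPM in adipocyte nuclei. HEYL, a target of Notch, was at 136 CPM in mural-marker and 2.93 CPM in adipocyte nuclei.

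Most markers of other cells were lower, and none of the endothelial, stromal, immune and mural markers was absent. Outside the rule, all 7 endothelial markers counted were at least 2-fold lower, with a median log2 ratio of −2.41. Their sum was 276 CPM in adipocyte nuclei, 1381 CPM in other nuclei and 4048 CPM in endothelial-marker nuclei, with VWF the most abundant. In adipocyte nuclei this sum was 149.6 CPM in sublibrary 1 and 358 CPM in sublibrary 2. Marker classes were chosen by class genes such as VWF, so the level of each list in its own class describes that choice. Of 7 stromal markers, 5 were at least 2-fold lower (median log2 ratio −1.35). Their sum was not lower, with 1912 CPM in adipocyte and 1933 CPM in other nuclei, a ratio of 0.989 (0.96 to 1.02), beside 4615 CPM in stromal-marker nuclei. COL3A1 made up 88.3% of the adipocyte sum, which was 2652 CPM in the 71 shallower and 1812 CPM in the 71 deeper nuclei. Of 4 immune markers counted, 3 were lower (median log2 ratio −1.25), and the list's sum over 6 genes was 251 CPM in adipocyte, 584 CPM in other and 2271 CPM in immune-marker nuclei, led by CD163. The part of such nuclei or RNA in the values above was not tested.

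The mural list had an exception. Of its 7 genes outside the rule, with a median log2 ratio of −2.08, 6 were at least 2-fold lower and MCAM, a cell adhesion molecule, was 5.14-fold (4.75 to 5.57) higher. MCAM was at 453 CPM in adipocyte and 159.8 CPM in mural-marker nuclei. The list's sum without the rule's genes was 755 CPM in adipocyte, 1125 CPM in other and 3572 CPM in mural-marker nuclei, which were chosen by mural markers. Of lymphatic, Schwann, skeletal muscle and keratinocyte markers, 5, 3, 4 and 1 were counted, and none was at least 2-fold higher. No erythroid marker was counted. In that order, with erythroid markers last, the sums were 35.9, 61.6, 77, 11 and 4.77 CPM. CCL21, ACTA1, KRT5 and KRT8 of these lists were at 0 UMIs.

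Mitochondrial and ribosomal protein transcripts were rare. Mitochondrially encoded genes made up 0.00968% of UMIs in adipocyte and 0.0274% in other nuclei, and all 9 such genes counted were at least 2-fold lower (median log2 ratio −1.37). Depth moved with this result. Against the 367 other nuclei of at least 9076.5 UMIs, 3 of the 9 were at least 2-fold lower (median −0.85), and in the 71 shallower adipocyte nuclei 0 of 9 were (median −0.57). Ribosomal protein genes made up 0.0208% and 0.0298%.

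Adipocyte nuclei varied among themselves more for some genes than for others. The spread was measured as the variance of a gene's UMIs over the 142 nuclei beyond counting error, divided by the squared expected UMIs at each nucleus's depth, so that counting error alone gives 0. Over 260 genes at least 2-fold higher with 500 or more UMIs, those of the rule left out, this extra variance ran from 0.0568 to 6.91 with a median of 0.349. It was 0.12 for SCD, 0.18 for GPAM, 0.23 for FASN, 0.26 for GHR and 0.31 for ACACA. These 5 genes thus lay below the median.

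ACLY was uneven. Its extra variance was 2.58, the fifth highest of the 260, and 33 of the 142 nuclei had no ACLY UMI. The lower quartile was 42.1 CPM, the median was 569.8 CPM and the highest nucleus stood at 15904 CPM. The 10 nuclei with the most ACLY UMIs held 60.3% of them, where the 10 deepest nuclei held 29.1% of all UMIs, and 1 nucleus held 21.9%. FGF1, ELOVL5, COL8A1 and CCDC3 were more uneven still, with extra variances of 6.91, 3.16, 2.67 and 2.58, and ELOVL6 followed at rank 12 with 1.45.

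**Figure D5:**
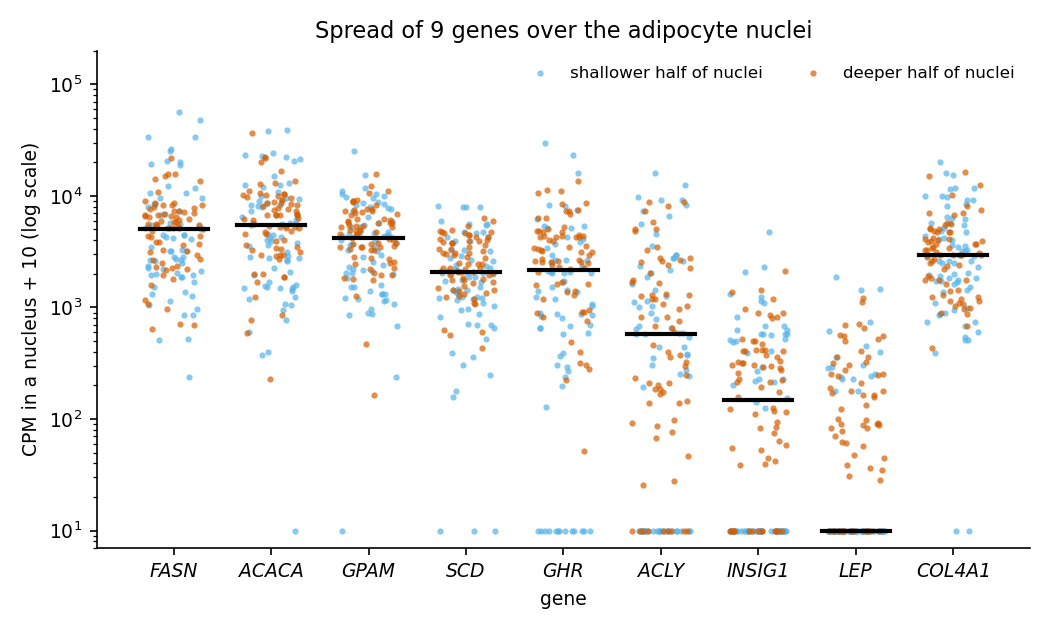
CPM of 9 genes in each of the 142 adipocyte nuclei (plus 10, log scale) is shown, with nuclei at or below the median of 9076.5 UMIs in blue, deeper ones in orange, and a bar at the median. FASN, GPAM and SCD form compact clouds, while ACLY, INSIG1 and LEP spread down to nuclei with no UMI at both depths. INSIG1 (399 CPM) and LEP (176 CPM) are less abundant than FASN (5884 CPM), so nuclei without a UMI arise in part from counting.

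The genes whose levels most resembled that of ACLY were sought in the 71 deeper nuclei, over 899 other genes with a symbol and at least 500 UMIs. Spearman's rho was highest for ACSS2 (0.517), then TKT (0.469), ACOX2 (0.428), CUX1 (0.422) and ATP9A (0.407), where the median over all genes was 0.0184. The coefficient was 0.392 for INSIG1, 0.332 for FASN, 0.320 for ACACA and 0.0199 for SCD. These are descriptions over nuclei of 1 library that share depth and free RNA. ACLY itself followed depth with a rho of 0.288 in these nuclei and of 0.116 over all 142. In the 71 deeper nuclei the rho with depth was 0.488 for INSIG1, above its rho with ACLY, 0.127 for ACACA and 0.0422 for FASN.

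Levels were also compared between wells and between shallower and deeper nuclei. FASN was at 5875 CPM in adipocyte nuclei of well A11 and 5899.8 CPM in those of A12. ACSL1 differed more, at 2500.1 and 3891 CPM, and CIDEA at 265 and 455 CPM. GHR was at 2745 CPM in the 71 shallower and 3899 CPM in the 71 deeper nuclei, while COL5A3 was at 2482 and 1253 CPM. The most abundant transcript, ENSBTAG00000066082, made up 9.55% of UMIs in the shallower and 4.86% in the deeper nuclei.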

How the data were processed

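The authors aligned the Parse reads to the cow genome ARS-UCD1.3 with split-pipe and deposited raw UMI counts per gene and called barcode, without normalization, in 1 cow library. The study then called doublets with scDblFinder and left out nuclei and genes by depth, genes detected and mitochondrial share. The deposited counts still hold nuclei past its upper limits, and its doublet calls were not used here. Whether counting used strand is not given in the sources used here. FastQC and Scanpy are named in the submitters' processing notes. Other libraries were used only to count nuclei and barcodes.

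Counts per nucleus were summed with Python 3.11.15, numpy 2.4.6, scipy 1.17.1 and pandas 2.3.3, and plotted with matplotlib 3.10.9. Of 36075 gene identifiers 16442 had no symbol, and 508 of 546 genes in 33 lists had one paired. Genes, such as ADIPOQ, without one were not analysed here. The depth was 16827260 UMIs in the library and 2726079 in adipocyte nuclei. CPM came from pooled UMIs, and ratios had 0.5 UMI added and a minimum of 20 UMIs, seen or expected. Ratio intervals are exact conditional binomial, medians order-statistic and shares exact binomial, at 95%. Thinning to 1000 UMIs used the seed 20. HADH has more than 1 identifier and is not named, and a few other genes of the lists are counted but not reported here. The steps were tested on simulated data.

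Genes named were the 25 with the largest ratio among those with a symbol, 50 or more UMIs and a UMI in at least 10% of adipocyte nuclei, the 10 with the smallest ratio among those with 50 UMIs expected, none of them of the rule, and genes of the lists with most UMIs or the clearest ratios. ACOX2, CUX1, ATP9A, COL8A1, CCDC3, AGPAT4, IDI1, FDFT1 and ENSBTAG00000066082 were named after their values were seen. The members and lists were chosen with earlier results of these data known. Alternatives changed the rule, depth, comparison group, scaling, pseudocount and minimum, and 4 sets of them were chosen after seeing the data. With 1 library no test was made.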

Additional observations from a re-analysis of the deposited data

How the results depend on the processing

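The 142 adipocyte nuclei became 175 with A more than 1 times B, 118 with A more than 4 times B, 86 within 15000 UMIs and 4500 genes (median 5069 UMIs) and, chosen after seeing the data, 179 with B taken without FBN1. With A of at least 5 or 12 there were 164 and 133, and thinned to 1000 UMIs with an A of at least 3 there were 156, of which 115 were among the 142. The 1359 higher and 2405 lower genes became 455 and 299 of 1695 counted when nuclei were thinned to 1000 UMIs. Within the limits of 15000 UMIs and 4500 genes, 987 were higher and 1206 lower of 5431 counted (18.2% and 22.2%). With a minimum of 50 UMIs, 989 were higher and 1510 lower of 8497 (11.6% and 17.8%). Equal weight per nucleus gave 1687 higher and 3162 lower of 12602 (13.4% and 25.1%). Chosen after seeing the data, the 25 nuclei with a B of 0 gave 457 higher and 422 lower of 1742 (26.2% and 24.2%). The 71 shallower nuclei, also chosen then, gave 661 and 894 of 3933 (16.8% and 22.7%). Except with equal weight, fewer genes reached the minimum in these settings. Of 186 named genes, none that was past 2-fold changed direction under any of the other alternatives run. In the 25 nuclei with a B of 0, a value the rule itself uses, DIPK1B had a log2 ratio of −0.19 (0 UMIs), beside 3.33 over all adipocyte nuclei, and the cause was not tested. All 25 leading genes were at least 2-fold higher with each nucleus weighted equally, against the marker classes and in each sublibrary. They were so too against the 367 other nuclei of at least 9076.5 UMIs. The 25 were chosen by their ratio in these same nuclei, so these recounts give no independent support. In addition, 6 of them were counted only through their adipocyte UMIs. Thinned to 1000 UMIs, 16 of the 25 kept that call with a minimum of 20 UMIs, as fewer genes were counted. Counts of list genes moved too. Over the alternatives, the least and most genes at least 2-fold higher, then lower, were 8 to 10 and 0 to 3 for triglyceride synthesis, 5 to 8 and 2 to 6 for uptake, 7 to 12 and 0 to 3 for insulin, 7 to 8 and 1 to 6 for cyclic AMP, 4 to 7 and 0 to 3 for adipokines, 8 to 12 and 1 to 5 for regulators, 6 to 10 and 4 to 8 for matrix, 6 to 9 and 3 to 6 for angiogenic ligands, and 6 to 9 and 1 to 5 for cholesterol. They were 13 to 16 and 1 to 2 for fatty acid synthesis. No paired analysis was possible because 1 library was compared within itself.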

Other observations

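Genes without a symbol were also high in adipocyte nuclei. ENSBTAG00000069476 had 78 UMIs in 38 nuclei and a ratio of 15.3-fold (9.84 to 25.2), and ENSBTAG00000038323 had 454 UMIs in 85 nuclei and 10.4-fold (8.88 to 12.3). Both were named after their values were seen, as the highest by ratio and by UMIs among 5 such genes. The first was counted only through its adipocyte UMIs and so had to be higher.

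Clock genes were few among those past 2-fold. Of 17 counted, of which 1 only through its adipocyte UMIs, 1 was at least 2-fold higher and 1 lower, below the 10.8% and 19.1% of all genes, with a median log2 ratio of 0.26. These counts became 2 and 4 thinned to 1000 UMIs, 4 and 1 within 15000 UMIs and 4500 genes, and 3 and 0 in sublibrary 2. BHLHE41, a repressor in the clock, was 2.68-fold (1.94 to 3.65) higher, CLOCK was at 1.87 times (1.71 to 2.05) and PER2 at 0.447 times (0.359 to 0.545). Of 6 caveolar genes counted, 1 was at least 2-fold lower and 5 lay within 2-fold, with CAVIN1 at 0.325 times (0.27 to 0.385) and highest in endothelial-marker nuclei at 386 CPM, CAVIN2 at 1.73 times (1.35 to 2.19) and CAV2 at 1.58 times (1.31 to 1.88). In sublibrary 1 alone 2 of the 6 were higher and 1 lower, and in sublibrary 2 alone 0 were higher and 2 lower. Cytosolic ribosomal protein genes had 1 of 19 counted at least 2-fold lower and none higher, a count that became 5 lower without the most abundant transcript in the scaling or in sublibrary 2 alone, and 4 lower and 3 higher thinned to 1000 UMIs.

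The 89 nuclei with an A of at least 8 that was not above 2 times B lay between the groups in lipid genes. FASN was at 2457 CPM in them, ACACA at 2898, GPAM at 2232, GHR at 1473 and LEP at 48.3 CPM, where the adipocyte nuclei stood at 5884, 7072, 4979, 3762 and 176 CPM. Stromal UMIs outnumbered A in 47 of them, immune and endothelial UMIs in 18 each and mural UMIs in 5.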
